A study of Homo sapiens with 12 samples.

Results

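The integrin, laminin and collagen chain genes were followed in RNA-sequencing data of HCT116 cells, a human colorectal carcinoma line. The set holds every protein-coding row of the deposited count table whose symbol is ITGA or ITGB followed by digits or a single letter, LAMA, LAMB or LAMC followed by a digit, or COL, digits, A and digits. This rule, which uses no measured value, took 81 of 58233 rows: 25 integrins, 12 laminins and 44 collagens. Of the 81 members, 42 passed the filter on low counts and were tested (14 integrins, 10 laminins and 18 collagens). LAMA4 passed it only through the untreated SDS22-degron libraries and ITGAX only through the treated libraries of both lines, the groups where their counts are highest, so that a difference from those groups was favoured and their values are given without a p. The other 39 had too few reads, and 9 of them had 0 counts in all 12 libraries.

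Each of 4 conditions had 3 libraries. The parental line HCT116 Tet-OsTIR1 and the SDS22-degron line derived from it (SDS22-mAID-mClover) were left untreated or were kept for 48 h with 2 µg/ml doxycycline (Dox) and 500 µM indole-3-acetic acid (IAA). Both lines, and therefore all libraries, carry the plant F-box gene OsTIR1 at the AAVS1 locus under a tetracycline-inducible promoter. In the SDS22-degron line the alleles of PPP1R7, which encodes SDS22, were edited in addition to add the mAID-mClover tag, so that Dox/IAA leads to degradation of the fusion protein. The parental cells have no tagged SDS22, and their Dox/IAA libraries give the background of the treatment itself. The edited line was grown from isolated colonies after antibiotic selection, so a difference between the lines cannot be told apart from a difference between a derived clone and its parent. The labels call the 3 libraries of a condition biological replicates but do not say whether they came from separate cultures, and the p-values measure only the spread between these samples. Between 12133915 and 14657508 reads were counted on genes per library, and libraries of one condition correlated at r between 0.990 and 0.995 across genes on the log2 scale. Normalization factors lay between 0.971 and 1.03, and no library stood apart. PPP1R7 mRNA was between 40.1 and 51.1 CPM (counts scaled to the normalized library total) in every library, which does not check the labels because the tag acts on the protein. In bulk RNA, fewer cells of a type and less RNA per cell cannot be told apart.

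Integrins are cell-surface receptors made of 1 α and 1 β chain, and the pairing decides which matrix protein is bound. Laminins are trimers of an α, a β and a γ chain that form the sheet of the basement membrane on which epithelial cells sit. Collagens are triple helices of α chains, which build fibrils, the network of the basement membrane (type IV) or beaded filaments (type VI), and some are transmembrane proteins. In an epithelium, integrins hold the cell on laminin and collagen, and the integrin of the ITGA6 and ITGB4 chains does so in hemidesmosomes.

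The libraries carried epithelial RNA, with 8 of 10 colorectal epithelial markers at a mean of 1 CPM or more and their sum between 2874 and 4398 CPM. EPCAM and KRT8 were at 284 and 1435 CPM, while CDX1 was at 0 counts and VIL1 at 0.0320 CPM. The markers of other cell types that make matrix were at or near 0. None of 6 fibroblast markers reached 1 CPM, their summed level was at most 0.235 CPM in any library, and PDGFRA, DCN, LUM and THY1 were at 0 counts in all libraries. The 5 endothelial markers summed to between 0.316 and 1.89 CPM, with CDH5 at 0 counts, and the 5 leukocyte markers to between 0.0750 and 0.607 CPM, with CD3E at 0 counts.

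Levels between genes are compared as CPM per kb of gene length, averaged over the 12 libraries. Among the integrins, ITGB4 (84.8 CPM per kb), ITGB1 (75.1), ITGA3 (60.7) and ITGA6 (32.5) led, which are the chains of the epithelial laminin receptors, and the libraries of the first 3 overlapped. LAMA5 (22.5 CPM per kb), LAMB3 (20.6), LAMB2 (20.0) and LAMC1 (16.1) led among the laminins, and the ranges of their libraries overlapped. The highest collagens were COL6A1 (32.8 CPM per kb), COL6A2 (29.7), COL18A1 (16.7) and COL12A1 (12.0). Several chains of connective tissue or basement membranes were at the floor, while COL1A1 had group means from 11.5 to 27.8 CPM. COL1A2 and LAMA1 had 0 counts, COL3A1 had 8 counts in all 12 libraries together, and the chains of the common type IV network, COL4A1 and COL4A2, had 20 and 5.

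**Figure D1:**
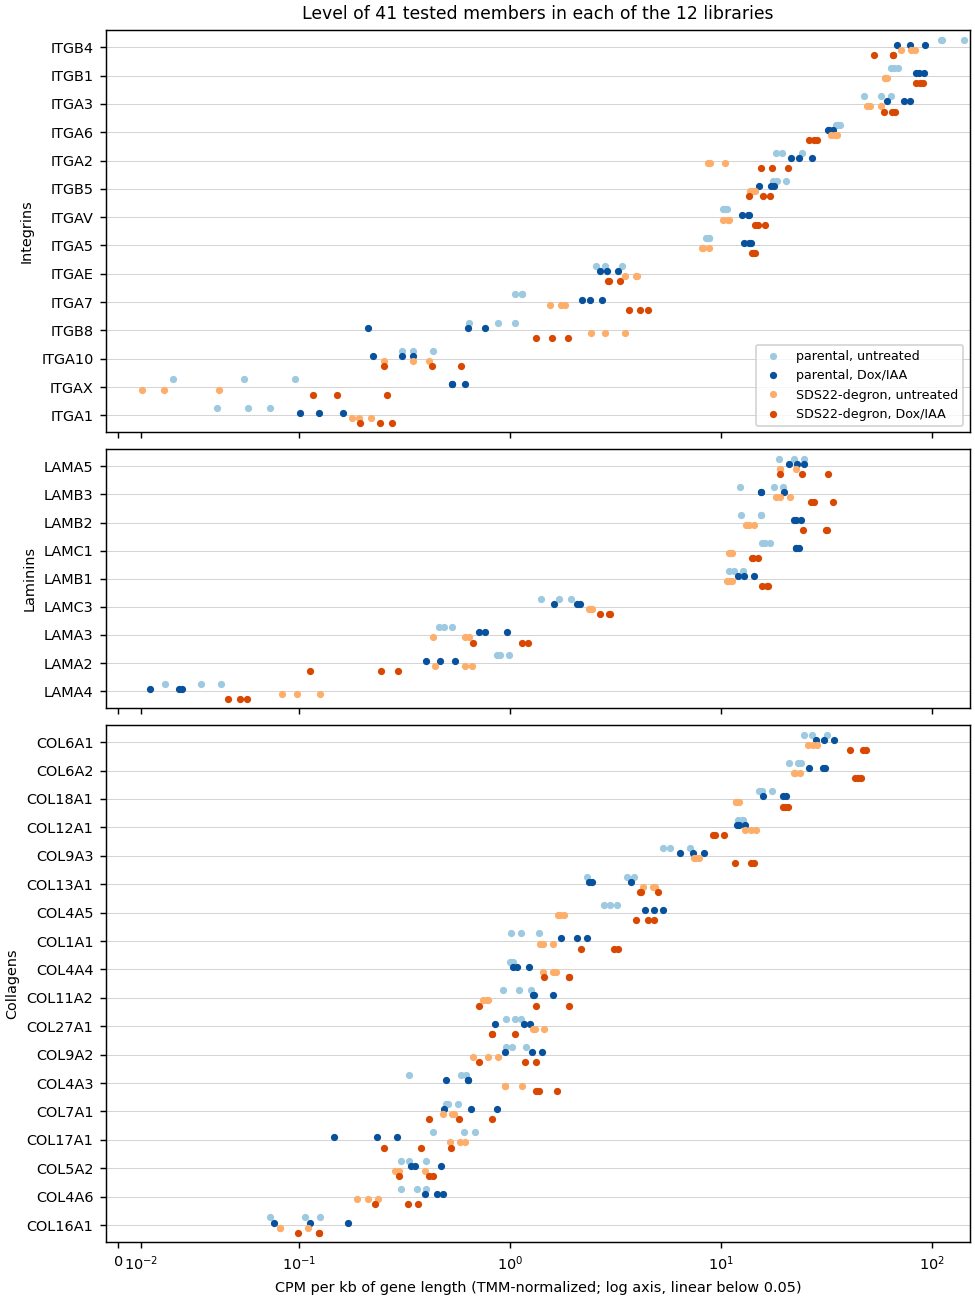
Level of 41 tested members in the 12 libraries, in CPM per kb of gene length on a log axis that is linear below 0.05. Points are libraries, coloured by condition, and genes are ordered by their mean within each family. ITGB4 (84.8 CPM per kb on average) and ITGB1 (75.1) lie at the top, and the 3 libraries of each condition lie close together for the abundant genes.

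The 39 members that were not tested are accounted for by name. The 11 integrins were ITGA4 (0 counts), ITGA8, ITGA9 (60 counts in all 12 libraries), ITGA11, ITGAD, ITGAL, ITGAM, ITGB2 (23), ITGB3 (10), ITGB6 (48) and ITGB7 (48). The 2 laminins were LAMA1 and LAMB4 (1 count). The 26 collagens were COL1A2, COL2A1, COL3A1, COL4A1, COL4A2, COL5A1, COL5A3, COL6A3 (35 counts), COL6A5, COL6A6, COL8A1, COL8A2, COL9A1, COL10A1, COL11A1, COL14A1, COL15A1, COL19A1, COL20A1, COL21A1, COL22A1, COL23A1, COL24A1, COL25A1, COL26A1 (77, the highest of the 39) and COL28A1. Some chains were therefore sequenced without their usual partner. The β chains that pair with ITGAE and ITGAX in leukocytes, ITGB7 and ITGB2, had 48 and 23 counts (ITGB7 overlaps ZNF740, with 12859 counts), and COL6A3, the remaining chain of common collagen VI, had 35 counts against 27108 for COL6A1.

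The first question was what Dox/IAA changed in each line. A member was called when its adjusted p was under 0.05 by the quasi-likelihood test of edgeR, with Benjamini-Hochberg adjustment over all 16657 tested genes. In SDS22-degron cells, 22 of the 42 members (52.4%) rose and 8 (19%) fell, whereas 26% of all tested genes rose and 25.5% fell. In parental cells, 14 members (33.3%) rose and 3 (7.14%) fell, against 15.9% and 15.7% of all genes. With the replicate number as a block, which pairs these parental libraries, 5 members fell. COL18A1 and COL9A3 were then added to those that rose (adjusted p = 0.0262 and 0.0214). The shares of all genes given here are those without the block. Among the called members, ITGAX rose in both lines and LAMA4 fell in SDS22-degron cells, differences that the filter favoured. The median log2 fold change of the 42 members was 0.41 in SDS22-degron and 0.21 in parental cells, and that of all tested genes was 0.00 in both. The 2 comparisons share no library. Of the 14 members that rose in parental cells, 13 also rose in SDS22-degron cells (92.9% of the 14 and 59.1% of the 22). Of the 3 that fell in parental cells, 2 fell in both, and 0 members were called in opposite directions. Over all genes, 76.5% of those that rose in parental cells also rose in SDS22-degron cells, which is 46.8% of those that rose in the latter. Of the 2608 genes that fell in parental cells, 1863 also fell in SDS22-degron cells. Of all 16657 genes, 82 were called in opposite directions. ITGAX is among the 13 and had the largest change of the members in both lines. Across the 42 members, ITGAX included, the log2 fold changes of both lines correlated at r = 0.85, and across all 16657 genes at r = 0.64. Because the filter favoured the changes of ITGAX in both lines, nothing is concluded from the difference between these 2 values. These are descriptions, since genes of a library are not independent.

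**Figure D2:**
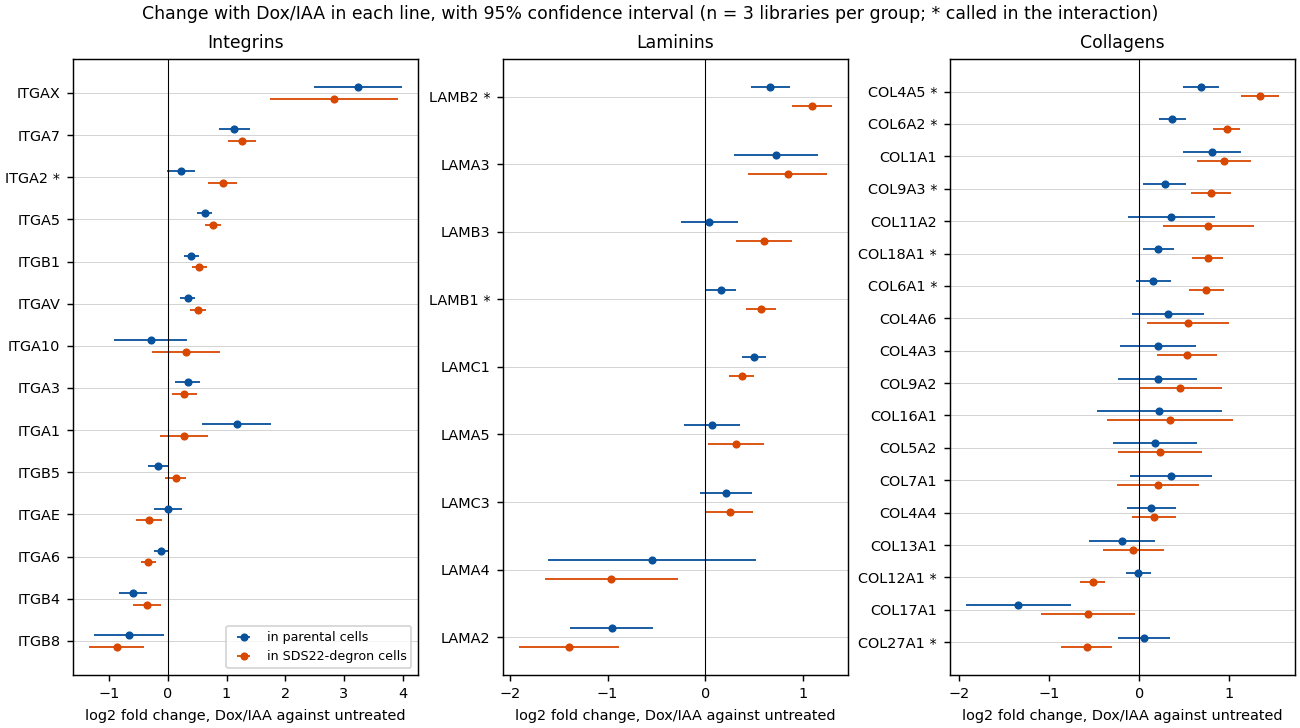
Log2 fold change of 41 tested members with Dox/IAA in parental (blue) and SDS22-degron cells (orange), with its 95% confidence interval, from 3 libraries per condition. An asterisk marks 10 members for which the lines differed in the interaction test. Most members lie on the same side of 0 in both lines, and the intervals of COL12A1 and COL27A1 lie below 0 in SDS22-degron cells and span 0 in parental cells.

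The direct test of a difference between the lines is the interaction, the Dox/IAA effect in SDS22-degron minus that in parental cells. It called 11 of the 42 members: 9 were more positive in SDS22-degron cells (21.4%, against 6.03% of all tested genes) and 2 more negative (4.76%, against 8.35%). Leaving out 1 library gave between 1 and 3 more negative members. Both negative members were collagens. The median of the 42 members was 0.14 and that of all tested genes 0.00 on the log2 scale. Called or not, 30 of the 42 members were more positive in SDS22-degron cells, as were 8290 of all 16657 tested genes. No member passed an absolute log2 difference of 1. Of all 16657 tested genes, 191 passed it in the positive and 409 in the negative direction with an unadjusted edgeR p under 0.05. These are a small share of the genes, so that the absence of members there does not set the 42 apart.

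Among the receptors, ITGA2, the α chain of a collagen receptor with ITGB1, was the single integrin called in the interaction in this fit. Its level in replicates 1, 2 and 3 was 154, 144 and 190.2 CPM in untreated parental cells and 170.0, 185 and 214 CPM with Dox/IAA. In SDS22-degron cells it was 82.4, 70.3 and 68.2 CPM before and 122, 164 and 138 CPM after treatment. The untreated SDS22-degron libraries were the lowest of all, and of the treated ones only replicate 2 lay within the range of the parental libraries. ITGA2 rose by 0.94 (SE 0.12, adjusted p = 2.94e-06) in log2 in SDS22-degron cells, its change in parental cells was 0.22 (SE 0.11, adjusted p = 0.15), and the difference of both was 0.71 (SE 0.16, adjusted p = 0.00658). Between the lines it was lower in SDS22-degron cells, with log2 differences of -1.14 (SE 0.12, adjusted p = 1.38e-06) untreated and -0.43 (SE 0.11, adjusted p = 0.0052) treated.

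ITGB1 and its partners ITGA3, ITGA5, ITGA7 and ITGAV rose with Dox/IAA in both lines. Not every tested α chain did. The rise of ITGA2 was called only in SDS22-degron cells and that of ITGA1 only in parental cells. ITGA10 was called in neither line, and ITGA6 and ITGAE fell in SDS22-degron cells. ITGB1, the β chain shared by most matrix-binding integrins, rose from 397 ± 14.5 to 524 ± 24.6 CPM (mean ± SD, n = 3) in parental cells and from 362 ± 4.59 to 523 ± 19.6 CPM in SDS22-degron cells. The log2 changes were 0.40 (SE 0.06, adjusted p = 0.000103) and 0.53 (SE 0.06, adjusted p = 1e-06), with a difference between them of 0.13 (95% interval -0.05 to 0.31). ITGA5, the fibronectin receptor chain, rose by 0.63 and 0.77, and ITGAV, the chain of vitronectin-type receptors, by 0.34 and 0.52. ITGA7, a laminin receptor chain of muscle, gave 6.75, 7.27 and 7.25 CPM in untreated and 15.2, 13.9 and 17.5 CPM in treated parental libraries, and 11.1, 11.6 and 9.87 CPM and 23.3, 28.6 and 26.4 CPM in those of SDS22-degron cells. The 4 groups of ITGA7 values did not overlap, and it rose by 1.13 (SE 0.13, adjusted p = 4.54e-06) in parental and 1.26 (SE 0.11, adjusted p = 4.66e-08) in SDS22-degron cells. ITGA7 overlaps BLOC1S1, METTL7B and RP11-644F5.10 on the other strand, whose reads the counting may not separate. These had 1933, 3309 and 220 counts against 2308 for ITGA7. ITGA3, which binds epithelial laminin with ITGB1, rose by 0.34 (adjusted p = 0.0163) and 0.28 (adjusted p = 0.0281). The parental call was lost without treated replicate 1 or 3 or untreated replicate 2 (adjusted p up to 0.0840), and the SDS22-degron call without treated replicate 2 or 3 or untreated replicate 1 or 2 (up to 0.121).

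Of the hemidesmosomal receptor, ITGB4 fell in both lines and ITGA6 in SDS22-degron cells. ITGB4 was at 751, 741 and 956 CPM in untreated parental cells and at 531, 460.2 and 626 CPM with Dox/IAA, and at 481, 536 and 559 CPM and 356, 438 and 442 CPM in SDS22-degron cells. Untreated parental libraries were thus the highest and treated SDS22-degron libraries the lowest, with no overlap within either line. ITGB4 overlaps GALK1 on the other strand, which had 5222 counts against 88272. The log2 change was -0.60 (SE 0.11, adjusted p = 0.000688) in parental and -0.35 (SE 0.11, adjusted p = 0.0155) in SDS22-degron cells, and the latter call was lost without treated replicate 1 or untreated replicate 3 of SDS22-degron cells (adjusted p up to 0.0780). ITGA6 fell in SDS22-degron cells from 225 ± 7.77 to 178 ± 8.74 CPM, with a log2 change of -0.33 (SE 0.06, adjusted p = 0.000131), and its change in parental cells was -0.12 (SE 0.06, adjusted p = 0.133). The log2 ratio of ITGA6 to ITGB1, per kb, went from -0.89 ± 0.02 to -1.41 ± 0.10 in parental and from -0.81 ± 0.04 to -1.67 ± 0.07 in SDS22-degron cells, with no overlap in either line. The ratio of ITGA6 to ITGB4 was -1.75 ± 0.21 and -1.27 ± 0.25 in parental and -1.17 ± 0.06 and -1.15 ± 0.11 in SDS22-degron cells.

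ITGAX, a leukocyte α chain, had 8, 5 and 2 counts in the untreated and 50, 55 and 48 counts in the treated parental libraries, and 1, 2 and 4 and 14, 24 and 10 counts in those of SDS22-degron cells. It was higher in every treated library than in every untreated library of its line, with fitted log2 changes of 3.25 (95% interval 2.5 to 3.99) and 2.82 (1.73 to 3.91). ITGA1 rose in parental cells by 1.17 (SE 0.28, adjusted p = 0.00357), but it shares its strand with PELO, which had 7212 counts against 452 for ITGA1, and the origin of these reads is uncertain. ITGAE, which binds E-cadherin with ITGB7, fell in SDS22-degron cells, with a log2 change of -0.32 (SE 0.11, adjusted p = 0.0197). Its position overlaps GSG2 on the other strand, which had 4457 counts against 3302 for ITGAE. ITGB8, a partner of ITGAV, was at 36.6, 42.8 and 53.3 CPM in untreated and 23.9, 20.1 and 28.4 CPM in treated SDS22-degron cells, a log2 change of -0.87 (SE 0.23, adjusted p = 0.00339) that DESeq2 did not call (adjusted p = 0.0643). In parental cells its change was -0.66 (SE 0.29, adjusted p = 0.0864) without and -0.68 (adjusted p = 0.0234) with the replicate block. ITGB5 changed by -0.16 in parental cells (adjusted p = 0.143, and 0.0393 with the block). ITGA10, an α chain of a collagen receptor, was not called in any comparison.

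Among the ligands, LAMB3, a β chain of the epithelial adhesion laminin, was at 77.6 ± 18.1 and 79.6 ± 12.0 CPM in parental cells and at 91.0 ± 6.97 and 138 ± 19 CPM in SDS22-degron cells. It rose in SDS22-degron cells by 0.60 (SE 0.14, adjusted p = 0.00122), its change in parental cells was 0.04 (SE 0.14, adjusted p = 0.866), and the interaction of 0.56 (SE 0.19, adjusted p = 0.0622) missed the threshold. It was called by DESeq2 (adjusted p = 0.0351), by the likelihood ratio test (0.0371), with the GC correction (0.0438), with no filter (5.36e-05) and in 2 of the 12 fits that left out 1 library, those without untreated parental replicate 2 (0.00344) or treated parental replicate 1 (0.0247). LAMA3, its α chain, rose by 0.72 and 0.84 (adjusted p = 0.0117 and 0.00136). LAMA3 was far below LAMB3, with a log2 ratio per kb between -5.13 ± 0.24 and -4.38 ± 0.36 over the group means.

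LAMB2 and LAMB1, the β chains of most other basement membrane laminins, were called in the interaction. LAMB2 had 106, 85.2 and 105 CPM and 155, 151 and 163 CPM in untreated and treated parental libraries, and 89.7, 93.4 and 98.5 CPM and 167, 216 and 218 CPM in SDS22-degron libraries. All 3 treated SDS22-degron libraries were above every other library. LAMB2 rose by 0.66 in parental and 1.09 in SDS22-degron cells, and the difference was 0.43 (SE 0.14, adjusted p = 0.0411). That call was kept in the fits that left out untreated parental replicate 2, treated parental replicate 3 or treated SDS22-degron replicate 1 and was lost in those that left out any of the other 9 libraries (adjusted p between 0.0528 and 0.124). LAMB1 had 93.7, 89.0 and 103 CPM and 105, 97.3 and 116 CPM in parental and 91.1, 86.5 and 88.7 CPM and 127, 135 and 134 CPM in SDS22-degron libraries. Again the treated SDS22-degron libraries were the highest, with an interaction of 0.42 (SE 0.10, adjusted p = 0.0117). LAMB1 overlaps DLD on the other strand, which had 19475 counts against 16317 for LAMB1.

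LAMC1, the γ chain of most laminins, was lower in SDS22-degron cells throughout. It rose with Dox/IAA from 136 ± 6.01 to 192 ± 3.77 CPM in parental and from 93.4 ± 1.77 to 121 ± 4.42 CPM in SDS22-degron cells, by 0.50 and 0.37. In both conditions it was lower in SDS22-degron cells, with log2 differences of -0.54 (SE 0.06, adjusted p = 3.05e-06) untreated and -0.67 (SE 0.06, adjusted p = 7.26e-08) treated. The log2 ratio of LAMB1 to LAMC1 per kb was -0.47 ± 0.05 and -0.82 ± 0.13 in untreated and treated parental cells, and -0.03 ± 0.01 and 0.17 ± 0.05 in SDS22-degron cells, and the 4 groups did not overlap. LAMA5, the most abundant laminin α chain, was called in 0 of the 5 comparisons, with an unadjusted edgeR p under 0.05 in 1 of them, and its treated SDS22-degron libraries were spread widely (272, 458 and 345 CPM). Its Dox/IAA change in SDS22-degron cells was called with library size only (adjusted p = 0.0420) and with no filter (0.000175). The same change was called without replicate 1 of the treated (0.00474) or untreated (0.0430) SDS22-degron libraries. LAMA5 overlaps ADRM1 on the other strand, which had 23736 counts against 49709. LAMC3 changed with Dox/IAA by 0.21 and 0.25, neither called.

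LAMA2 fell in both lines at a low level. LAMA2, the α chain of muscle laminin, was at 9.03, 10.0 and 8.73 CPM and 4.05, 5.53 and 4.72 CPM in parental libraries and at 6.2, 4.47 and 6.68 CPM and 1.14, 2.48 and 2.96 CPM in SDS22-degron libraries. Every treated library was below every untreated one of its line. The log2 changes were -0.96 (SE 0.20, adjusted p = 0.00144) and -1.40 (SE 0.24, adjusted p = 0.000104). LAMA2 overlaps the pseudogenes BMPR1APS1 and MESTP1 on the other strand, which had 1179 and 573 counts against 846. LAMA4, the α chain of vessel laminin, had 20, 14 and 15 counts in untreated SDS22-degron libraries and between 2 and 8 counts in the other 9.

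Among the collagens, both tested chains of collagen VI were more positive in SDS22-degron cells in the interaction. COL6A1 had 132, 144 and 169 CPM and 163, 151 and 183 CPM in untreated and treated parental libraries, and 137, 145 and 153 CPM and 217, 250.5 and 260.3 CPM in SDS22-degron libraries. COL6A2 had 124, 113 and 128 CPM and 167, 140.2 and 164 CPM, and 120.0, 119.7 and 127 CPM and 233, 239 and 247 CPM. For both chains the untreated lines overlapped and the treated SDS22-degron libraries were above all others. COL6A1 rose in SDS22-degron cells by 0.74 (SE 0.09, adjusted p = 2.42e-06), its change in parental cells was 0.16 (SE 0.09, adjusted p = 0.214), and the interaction was 0.59 (SE 0.13, adjusted p = 0.00527). COL6A2 rose by 0.97 (SE 0.07, adjusted p = 7.74e-09) in SDS22-degron and 0.37 (SE 0.07, adjusted p = 0.000905) in parental cells, with an interaction of 0.60 (SE 0.10, adjusted p = 0.000691). The per-kb ratio of COL6A1 to COL6A2 lay between 0.03 ± 0.10 in treated SDS22-degron and 0.29 ± 0.17 in untreated parental cells on the log2 scale.

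COL18A1, a basement membrane collagen whose C-terminal fragment is endostatin, differed from collagen VI in its untreated levels. It was at 133, 128 and 149 CPM and 173, 135 and 167 CPM in parental libraries, and at 104, 101 and 100.1 CPM and 177, 168 and 171 CPM in SDS22-degron libraries. Untreated SDS22-degron libraries were the lowest, and after treatment the lines overlapped. The rise in SDS22-degron cells was 0.76 (SE 0.08, adjusted p = 5.18e-07) and the interaction 0.55 (SE 0.12, adjusted p = 0.0037). In parental cells the change was 0.21 (SE 0.08, adjusted p = 0.057) without and 0.21 (adjusted p = 0.0262) with the replicate block. COL18A1 (chr21:45405137-45513720), COL6A1 (chr21:45981737-46005050) and COL6A2 (chr21:46098097-46132849, GRCh38) are neighbours on chromosome 21. The median interaction of the 50 tested genes nearest to COL6A1 was -0.11, and a cause shared by the region was not tested. COL18A1 overlaps SLC19A1, on the other strand, which had 10833 counts against 21916.

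COL9A3, a chain of collagen IX, which sits on the surface of fibrils, had 25.5, 27.6 and 34.3 CPM and 35.4, 31.0 and 40.0 CPM in parental and 35.7, 37.9 and 36.7 CPM and 56.4, 67.1 and 68.8 CPM in SDS22-degron libraries. The treated SDS22-degron libraries were above all others. The interaction was 0.52 (SE 0.16, adjusted p = 0.0325), a call that was lost in 8 of the 12 fits that left out 1 library (adjusted p up to 0.109), those without parental untreated replicate 3, parental treated replicate 1 or 2, SDS22-degron treated replicate 2 or 3, or any untreated SDS22-degron library. Its change in parental cells was 0.28 (SE 0.11, adjusted p = 0.0636) without and 0.29 (adjusted p = 0.0214) with the replicate block. COL9A3 overlaps TCFL5 on the other strand, which had 4526 counts against 6410.

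COL12A1, which also associates with fibrils, and COL27A1, a fibrillar collagen, were the members with a negative interaction. COL12A1 had 158, 149.7 and 156 CPM and 149, 161 and 151 CPM in parental and 162, 172 and 182 CPM and 114, 117 and 129 CPM in SDS22-degron libraries. The treated SDS22-degron libraries were below all others. It fell in SDS22-degron cells, with a log2 change of -0.52 (SE 0.07, adjusted p = 3.35e-06), its change in parental cells was -0.01 (95% interval -0.15 to 0.13), and the interaction was -0.51 (SE 0.09, adjusted p = 0.00132). COL27A1 had 20.3, 18.4 and 17.9 CPM in untreated and 11.4, 14.8 and 11.4 CPM in treated SDS22-degron libraries, a log2 change of -0.59 (SE 0.14, adjusted p = 0.00138). In parental libraries it had 13.3, 14.7 and 15.8 CPM and 11.9, 16.4 and 17.4 CPM, a change of 0.06 (SE 0.14, adjusted p = 0.794). Untreated SDS22-degron libraries were thus the highest, and the treated lines overlapped (log2 difference -0.27, adjusted p = 0.119). Its interaction of -0.64 (SE 0.19, adjusted p = 0.0317) was lost in 7 of the 12 fits that left out 1 library (adjusted p up to 0.0853), those without parental untreated replicate 1, parental treated replicate 2 or 3, SDS22-degron untreated replicate 1 or 2, or SDS22-degron treated replicate 1 or 3.

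**Figure D3:**
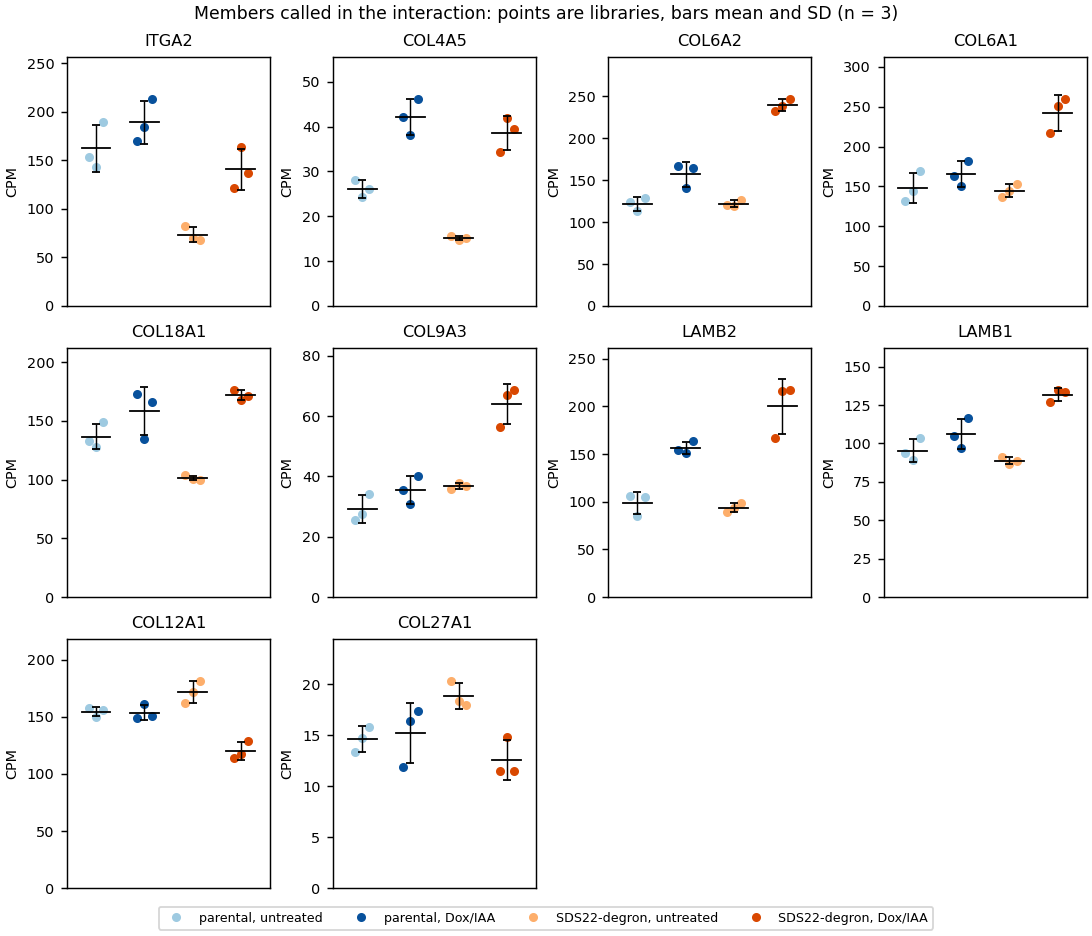
CPM of 10 members for which the Dox/IAA effect differed between the lines, in every library. Points are libraries, horizontal bars the mean and vertical bars the SD of 3 libraries, and each axis starts at 0. COL6A1, COL6A2, COL9A3, LAMB1 and LAMB2 are highest in treated SDS22-degron cells, COL12A1 is lowest there, and ITGA2, COL4A5 and COL18A1 are lowest in untreated SDS22-degron cells.

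The remaining fibrillar and transmembrane collagens were not called in the interaction. COL1A1, an α chain of collagen I, rose by 0.81 (SE 0.16, adjusted p = 0.000749) in parental and 0.94 (SE 0.15, adjusted p = 2.8e-05) in SDS22-degron cells, at 27.8 ± 5.77 CPM in the latter, and COL1A2, its partner chain, had 0 counts. COL17A1, a transmembrane collagen of hemidesmosomes, was at 2.79, 4.38 and 3.87 CPM in untreated and 1.87, 1.5 and 0.944 CPM in treated parental cells and fell, with a log2 change of -1.35 (SE 0.28, adjusted p = 0.00132). Its change in SDS22-degron cells was -0.57 (SE 0.25, adjusted p = 0.0633). That change was called by the likelihood ratio test (adjusted p = 0.0410), with no filter (0.0305) and with only the groups compared in the fit (0.0430). It was also called without treated SDS22-degron replicate 3 (0.0152). COL11A2 rose by 0.77 (SE 0.24, adjusted p = 0.0124) in SDS22-degron cells, with overlapping libraries. COL13A1, another transmembrane collagen, was not called with Dox/IAA in either line. COL5A2, COL7A1 (the collagen of anchoring fibrils), COL9A2 and COL16A1 were not called in any of the 5 comparisons.

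Type IV collagen chains of the basement membrane are encoded in pairs that lie head to head, and their profiles are described by pair. COL4A3 and COL4A4 lie on chromosome 2 with annotated starts 419 bases apart, and COL4A5 and COL4A6 on chromosome X with starts 380 bases apart. The sequences are the 250 bases before each annotated start, 5′ to 3′ on the gene's strand, from RefSeq on GRCh38.p14. They are shown because the 2 genes of a pair share this stretch of DNA and differed in the same direction between the lines. Capitals mark the bases that fall in the windows of both genes of a pair, 82 for COL4A3 and COL4A4 and 121 for COL4A5 and COL4A6.
COL4A3 (chr2:227164374-227164623, plus strand): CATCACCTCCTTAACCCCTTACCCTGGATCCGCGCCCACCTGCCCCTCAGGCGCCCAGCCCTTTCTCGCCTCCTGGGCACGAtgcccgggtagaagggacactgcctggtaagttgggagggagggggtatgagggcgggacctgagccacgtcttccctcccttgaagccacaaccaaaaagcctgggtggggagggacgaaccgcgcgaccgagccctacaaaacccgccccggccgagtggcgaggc
COL4A4 (chr2:227164206-227164455, minus strand): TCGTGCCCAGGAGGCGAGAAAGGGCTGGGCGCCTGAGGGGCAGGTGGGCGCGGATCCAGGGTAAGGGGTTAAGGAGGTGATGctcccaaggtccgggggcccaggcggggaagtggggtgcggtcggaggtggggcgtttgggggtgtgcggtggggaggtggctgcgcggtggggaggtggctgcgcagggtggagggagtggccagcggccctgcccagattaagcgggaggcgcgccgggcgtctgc
COL4A5 (chrX:108439588-108439837, plus strand): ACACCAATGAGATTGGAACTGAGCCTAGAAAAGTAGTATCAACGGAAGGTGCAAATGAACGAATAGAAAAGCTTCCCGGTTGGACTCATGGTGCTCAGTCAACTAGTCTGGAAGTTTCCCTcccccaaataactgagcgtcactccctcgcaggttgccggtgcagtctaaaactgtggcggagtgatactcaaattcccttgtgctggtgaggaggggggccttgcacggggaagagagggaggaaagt
COL4A6 (chrX:108439459-108439708, minus strand): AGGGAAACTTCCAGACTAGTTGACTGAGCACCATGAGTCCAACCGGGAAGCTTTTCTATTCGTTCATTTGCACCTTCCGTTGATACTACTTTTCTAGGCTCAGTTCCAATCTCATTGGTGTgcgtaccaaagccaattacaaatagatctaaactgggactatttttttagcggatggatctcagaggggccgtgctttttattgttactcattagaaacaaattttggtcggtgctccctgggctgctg

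The windows of the chromosome 2 pair are richer in G and C, with 66.4% for COL4A3 and 72.8% for COL4A4, than those of the X pair, with 51.2% for COL4A5 and 44.0% for COL4A6. The GC box letters GGGCGG, searched on both strands, occur 2 times in the COL4A3 window and 0 times in the other 3. Over the same 250 bases before the start, 42.3% of all 27305 promoters hold these letters, as do 31 of the 57 members with an entry (54.4%). The AP-1 letters TGANTCA were found in 6.6% of all promoters and in 1 of the 57 members, LAMA3, and TATAAA in 11.1% and in 6 of the 57. These are matches of letters only.

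The pairs differed between the untreated lines in opposite directions. COL4A3 was at 5.66, 3.05 and 5.36 CPM and 5.77, 5.77 and 4.56 CPM in untreated and treated parental libraries, and at 8.60, 10.4 and 8.65 CPM and 12.6, 15.2 and 12.1 CPM in SDS22-degron libraries. COL4A4 was at 9.96, 9.93 and 10.2 CPM and 10.6, 12.2 and 10.2 CPM, and at 15.8, 16.3 and 14.1 CPM and 14.3, 18.7 and 18.9 CPM. Every SDS22-degron library was above every parental library for both genes. COL4A3 overlaps AC097662.2 on the other strand, which had 118 counts against 1270. COL4A3 was higher in SDS22-degron cells by 0.98 (SE 0.18, adjusted p = 0.000586) untreated and 1.31 (SE 0.17, adjusted p = 7.6e-06) treated, and COL4A4 by 0.62 (SE 0.12, adjusted p = 0.000937) and 0.65 (SE 0.12, adjusted p = 0.000247). With Dox/IAA, COL4A3 rose in SDS22-degron cells by 0.53 (SE 0.16, adjusted p = 0.00968), a call lost without treated replicate 2 (adjusted p = 0.0564), and COL4A4 changed by 0.16 (SE 0.11, adjusted p = 0.251).

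COL4A5 had 28.2, 24.2 and 26.0 CPM and 42.1, 38.1 and 46.3 CPM in untreated and treated parental libraries, and 15.7, 14.8 and 15.1 CPM and 34.4, 41.9 and 39.4 CPM in SDS22-degron libraries. COL4A6 had 3.38, 2.81 and 3.71 CPM and 3.67, 4.19 and 4.48 CPM, and 1.97, 2.20 and 1.75 CPM and 3.05, 3.41 and 2.14 CPM. For both genes the untreated SDS22-degron libraries were below the untreated parental ones. COL4A5 was lower in untreated SDS22-degron cells, with a log2 difference of -0.78 (SE 0.10, adjusted p = 1.82e-05), its difference in treated cells was -0.13 (SE 0.09, adjusted p = 0.27), and it rose with Dox/IAA by 0.69 (SE 0.10, adjusted p = 4.01e-05) in parental and 1.34 (SE 0.10, adjusted p = 7.54e-09) in SDS22-degron cells, with an interaction of 0.65 (SE 0.14, adjusted p = 0.0037). COL4A6 was lower, with log2 differences of -0.73 (SE 0.21, adjusted p = 0.0151) untreated and -0.51 (SE 0.19, adjusted p = 0.0384) treated, and rose by 0.54 (SE 0.22, adjusted p = 0.0459) in SDS22-degron cells. The calls of this low-level gene depended on single libraries. The untreated call was lost without replicate 3 of either line (adjusted p up to 0.0646), and the treated one without parental replicate 2 or 3 or SDS22-degron replicate 1 or 3 (up to 0.178), with DESeq2 (0.0979) and with only the treated groups in the fit (0.0703). The Dox/IAA call was lost without any 1 of the SDS22-degron libraries but treated replicate 3 (up to 0.189), with DESeq2 (0.0893), with no filter (0.0733) and with only the groups compared in the fit (0.0603).

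**Figure D4:**
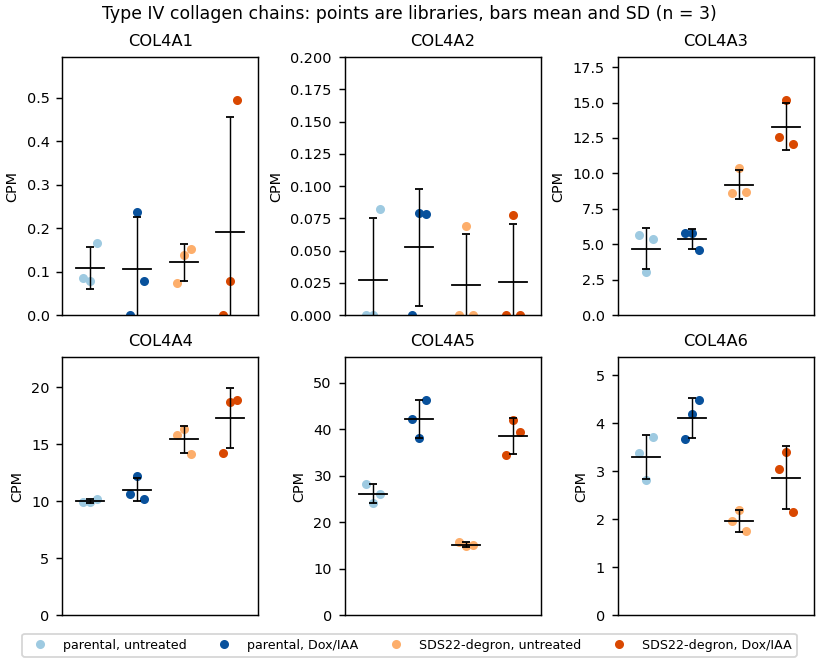
CPM of the 6 type IV collagen chains in every library. Points are libraries, horizontal bars the mean and vertical bars the SD of 3 libraries, and each panel has its own axis from 0. COL4A1 and COL4A2 reach at most 0.495 and 0.0824 CPM, COL4A3 and COL4A4 are higher in both SDS22-degron conditions, and the means of COL4A5 and COL4A6 are lowest in untreated SDS22-degron cells.

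The second question was how the lines differed at matched treatment. Between the treated lines, the comparison from which the study took its differentially expressed genes, 17 members (40.5%) were higher and 8 (19%) lower in SDS22-degron cells, against 21.8% and 23.1% of all tested genes. At the cut-off of the study, which asks for p under 0.05 before adjustment and a log2 fold change beyond 1 in either direction, 3 members were higher (ITGB8, COL4A3 and LAMA4) and 2 lower (ITGAX and LAMA2), against 3.25% and 3.38% of all genes. LAMA4 had 4, 4 and 2 counts in treated parental and 8, 7 and 8 in treated SDS22-degron libraries, all under the minimum count of 10, so that its place in this count carries little weight. Between the untreated lines, 11 members (26.2%) were higher and 9 (21.4%) lower, against 13.2% and 15% of all genes, and leaving out any 1 of the 6 untreated libraries gave between 7 and 9 higher members. LAMA4, which the filter favoured in untreated SDS22-degron cells, is among the higher members of both comparisons. The 42 members had a median log2 fold change of 0.10 between the treated and -0.05 between the untreated lines. Both comparisons use separate libraries. Of the 11 members higher in untreated SDS22-degron cells, 9 were also higher in treated ones (81.8% of the 11 and 52.9% of the 17). Of the 9 lower in untreated cells, 5 were lower in both, and 0 members were called in opposite directions. The r was 0.82 over the 42 members, ITGAX and LAMA4 included, and 0.65 over all genes. Over all genes, 66.6% of those higher in untreated SDS22-degron cells were also higher in treated ones (40.3% of the latter), and 148 were called in opposite directions. Of the 2500 genes lower in untreated SDS22-degron cells, 1585 were also lower in treated ones. The tested genes of chromosome 16, which holds ITGAX, had a median log2 difference of -0.31 between the treated and -0.30 between the untreated lines. Those of chromosome 3, with ITGB5, COL7A1 and LAMB2, had -0.26 and -0.27. Among the 50 tested genes nearest to ITGAX the medians were -0.36 and -0.40, and nearest to LAMB2 -0.27 and -0.32. Chromosome medians of the other tested members lay between -0.13 and 0.08. A cause shared by a region was not tested.

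**Figure D5:**
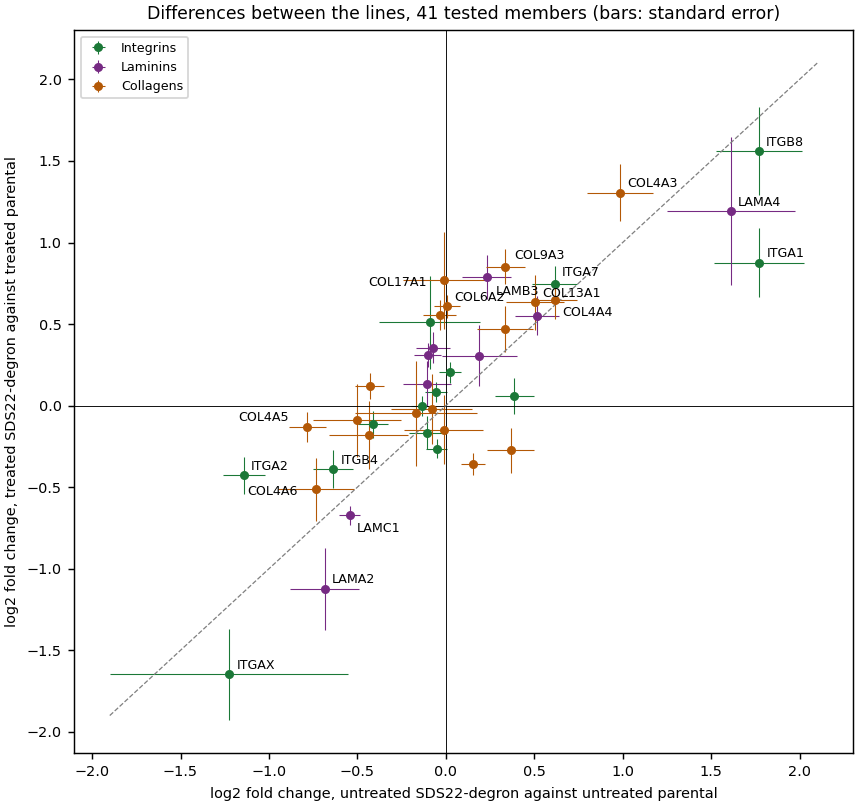
Log2 fold change between the lines for 41 tested members, untreated on the horizontal and treated on the vertical axis, with standard errors. Points on the dashed line differ equally in both conditions. ITGB8, ITGA1 and COL4A3 are higher and ITGAX, LAMA2, ITGA2 and LAMC1 lower in SDS22-degron cells in both conditions, with ITGAX not called between the untreated lines.

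Several of these differences were present before treatment. ITGB8 was at 13.3, 9.69 and 16 CPM in untreated parental and 36.6, 42.8 and 53.3 CPM in untreated SDS22-degron cells, a difference of 1.77 (SE 0.24, adjusted p = 2.92e-05), and at 11.5, 3.24 and 9.60 CPM and 23.9, 20.1 and 28.4 CPM in treated cells, a difference of 1.56 (SE 0.27, adjusted p = 0.000119). The libraries of both lines did not overlap in either condition. ITGA1 was higher in SDS22-degron cells by 1.77 and 0.88, and ITGA7 by 0.61 and 0.75. LAMC3, a laminin γ chain, was higher by 0.52 and 0.55, and COL13A1 by 0.51 and 0.63. ITGB4 was lower, with log2 differences of -0.64 (SE 0.11, adjusted p = 0.000391) untreated and -0.39 (SE 0.11, adjusted p = 0.00977) treated, the latter lost without treated parental replicate 3 or treated SDS22-degron replicate 1 (adjusted p = 0.0758 and 0.0652). LAMA2 was lower, with log2 differences of -0.68 (SE 0.19, adjusted p = 0.0126) and -1.12 (SE 0.25, adjusted p = 0.00142), the former lost without replicate 2 of either line (adjusted p up to 0.0827).

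For other members the difference between the lines was called in 1 of the 2 conditions or had another size in each, and the interaction given above is the test of that change. COL6A1 and COL6A2 were higher in treated SDS22-degron cells by 0.55 (SE 0.09, adjusted p = 8.47e-05) and 0.61 (SE 0.07, adjusted p = 2.08e-06), and their differences between the untreated lines were -0.03 (95% interval -0.23 to 0.16) and 0.01 (-0.15 to 0.16). LAMB1, LAMB2 and LAMB3 were higher in treated SDS22-degron cells by 0.31, 0.35 and 0.79 (adjusted p = 0.00189, 0.00493 and 0.000131), and COL12A1 was lower, with a log2 difference of -0.36 (SE 0.07, adjusted p = 0.000263). COL18A1 was lower in untreated SDS22-degron cells, with a log2 difference of -0.43 (SE 0.08, adjusted p = 0.000731), and its difference between the treated lines was 0.12. COL9A3 was higher by 0.34 (SE 0.11, adjusted p = 0.0313) untreated and 0.85 (SE 0.11, adjusted p = 4.49e-06) treated, and COL27A1 was higher by 0.37 (SE 0.13, adjusted p = 0.0467) untreated. Both untreated calls were weak, that of COL27A1 being lost without any 1 of the 6 libraries (adjusted p between 0.0501 and 0.160) and that of COL9A3 without any but parental replicate 3 (up to 0.133). COL1A1 was higher in treated SDS22-degron cells by 0.47 (SE 0.14, adjusted p = 0.0112), lost without treated parental replicate 1 or treated SDS22-degron replicate 2 or 3 (adjusted p up to 0.0697). COL17A1 was higher by 0.77 (SE 0.30, adjusted p = 0.0437), lost without treated parental replicate 2 or 3 or treated SDS22-degron replicate 1 or 3 (up to 0.241) with only the treated groups in the fit (0.0632) and with the GC correction and the replicate block together (0.0503).

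Summed over its members, each family took a small share of the counted reads. The integrins took between 0.193% and 0.271% of a library, the laminins between 0.0681% and 0.120%, and the collagens between 0.0658% and 0.106%. The summed collagen level was 939, 1027 and 1050 CPM in the treated SDS22-degron libraries and between 675 and 857 CPM in the other 9, without overlap. Much of the difference between the treated lines lies in COL6A1 and COL6A2. Their means were 243 and 240 CPM in treated SDS22-degron and 165 and 157 CPM in treated parental cells. Summed laminins were between 908 and 1167 CPM in treated SDS22-degron and between 939 and 994 CPM in treated parental libraries, all above the 6 untreated libraries (693 to 862 CPM).

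The genes around the matrix and its receptors were counted by lists. The shares of all tested genes to read these counts against are 26% that rose and 25.5% that fell with Dox/IAA in SDS22-degron cells, 15.9% and 15.7% in parental cells, and 6.03% more positive and 8.35% more negative in the interaction. Among 24 tested integrin adaptors and kinases, 8 rose and 3 fell with Dox/IAA in SDS22-degron cells, and 3 were more positive and 3 more negative in the interaction, so that the share that rose was near that of all genes. TNS4, an adaptor on the tail of β1 integrins, fell from 154 ± 5.51 to 49.4 ± 5.33 CPM in SDS22-degron and from 203 ± 33.7 to 118 ± 18.0 CPM in parental cells, with an interaction of -0.86 (SE 0.16, adjusted p = 0.00143). PARVA, which links the integrin-linked kinase to actin, went from 70.4 ± 2.63 to 99.7 ± 2.59 CPM in SDS22-degron cells, with an interaction of 0.42 (SE 0.10, adjusted p = 0.0105). Of 22 collagen-processing enzymes and chaperones, 10 rose and 2 fell in SDS22-degron cells, 6 rose and 2 fell in parental cells, and 1 was called in the interaction, a share near that of all genes. That gene was BMP1, the procollagen C-proteinase, with 0.63 (SE 0.11, adjusted p = 0.000725). SERPINH1, the collagen chaperone, had 0.30 (SE 0.11, adjusted p = 0.0867).

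Of 8 tested matrix proteases and inhibitors, 7 rose and 0 fell in SDS22-degron cells (26% and 25.5% of all genes) and 4 rose and 0 fell in parental cells (15.9% and 15.7% of all genes). The membrane-type proteases MMP14 and MMP15 had interactions of 0.74 (SE 0.14, adjusted p = 0.00206) and 0.63 (SE 0.11, adjusted p = 0.000904). Of 9 other matrix components, 4 rose and 4 fell in SDS22-degron cells, and 3 were more positive in the interaction (6.03% of all genes). HSPG2, the basement membrane proteoglycan perlecan, rose from 119 ± 14.7 to 222 ± 30.5 CPM in parental and from 107 ± 3.54 to 316 ± 52.5 CPM in SDS22-degron cells, with an interaction of 0.66 (SE 0.16, adjusted p = 0.00992). SPARC, a collagen-binding matrix protein, fell in both lines, from 8.38 ± 2.84 to 0.704 ± 0.369 CPM and from 23.2 ± 3.44 to 6.92 ± 0.916 CPM, and its interaction of 1.82 (SE 0.41, adjusted p = 0.00614) is a smaller fall in SDS22-degron cells. Of 12 other laminin and collagen receptors and hemidesmosome parts, 7 rose and 1 fell in SDS22-degron cells, and 1 was called in the interaction, a share near that of all genes. That gene was CD44, the hyaluronan receptor, with 0.54 (SE 0.13, adjusted p = 0.00751), which fell in parental cells from 948 ± 80.7 to 601 ± 91.2 CPM and was at 709.8 ± 13.2 and 656 ± 6.15 CPM in SDS22-degron cells. DDR1, a collagen receptor kinase, had 0.43 (SE 0.15, adjusted p = 0.0556).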

How the data were processed

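Poly-A RNA of 12 libraries, 3 in each of 4 conditions, was analysed. The authors deposited raw read counts per gene, without normalization, with gene position, length and GC percent. The submitters' processing notes name GRCh38, cutadapt 1.15, Bowtie2 2.3.3.1, STAR 2.5.2b, SAMtools 1.5 and featureCounts 1.5.3. Their roles and the strand setting of the counting are not given in the sources used here, so that reads of overlapping genes may be mixed, which is stated beside the tested members where the overlapping gene had over 5% of the member's counts. Groups and replicate numbers came from the labels.

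After filterByExpr (minimum count 10) and TMM normalization, edgeR 4.0.16 (R 4.3.3) fitted the mean of each condition. Contrasts used the quasi-likelihood F test, with Benjamini-Hochberg adjustment over 16657 genes and a threshold of 0.05. CPM are TMM-normalized, and log2 CPM in correlations had 2 as prior count. The F statistic and the fold change gave standard errors and 95% intervals. The median standard error of the members' log2 fold changes was between 0.12 and 0.13 for 2 groups and 0.17 in the interaction. The procedure was tested on simulated data.

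Members with the 4 highest levels per kb in each family, up to 5 called members with the largest changes per direction and comparison at a mean of 1 CPM or more, the chains of partner sets, and 2 genes per other list with the smallest interaction p were named by rule. Other members were given to complete their family. The members and lists were chosen with earlier results of these data known. All members enter the counts and medians, and the values of 1 member are not reported here.

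Alternatives were the likelihood ratio test of the study, DESeq2 1.42.0, library size only, no filter, a filter of 1 CPM, only the groups compared, a GC correction, the replicate block, both together, and each library left out. Same-numbered libraries deviated together (every pair above 0.1) between untreated and treated parental cells (r = 0.12, 0.25 and 0.13) and between the treated lines (0.10, 0.13 and 0.14), and these were taken as paired from the data. Promoter windows came from RefSeq, which held 57 of the 81 members.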

Additional observations from a re-analysis of the deposited data

Results flagged for a closer look

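The effect of Dox/IAA differed between SDS22-degron and parental cells for the following 10 members by the interaction test of edgeR, with Benjamini-Hochberg adjustment over all tested genes. The differences, SDS22-degron minus parental on the log2 scale, were 0.71 for ITGA2, 0.65 for COL4A5, 0.60 for COL6A2, 0.59 for COL6A1, 0.55 for COL18A1, 0.52 for COL9A3, 0.43 for LAMB2 and 0.42 for LAMB1. They were -0.64 for COL27A1 and -0.51 for COL12A1. ITGA2, COL4A5 and COL18A1 were lower in SDS22-degron than in parental cells before treatment (log2 differences of -1.14, -0.78 and -0.43), whereas COL6A1, COL6A2, LAMB1 and LAMB2 differed by between -0.10 and 0.01 there, none of them called. COL27A1 and COL9A3 were higher before treatment (0.37 and 0.34, both weak calls), and COL12A1 differed by 0.15, not called. The calls of LAMB2, COL9A3 and COL27A1 were lost in 9, 8 and 7 of the 12 fits that left out 1 library, and those of the other 7 members were kept in all 20 alternatives run for the interaction.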

How the results depend on the processing

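Of 87 called values of the 29 members the rule chose, 0 changed direction under the alternatives run for each (20 for the interaction, 15 for a comparison of 2 groups and 14 in 1 case), and 17 lost their call under at least 1 of them, 4 of these outside the fits that left out a library. Of the values of these members that were not called, 16 gained a call under at least 1 alternative. The counts of members moved by over 1.5 times in 3 cases. With the replicate block, alone or with the GC correction, 5 members fell with Dox/IAA in parental cells in place of 3, ITGB5 and ITGB8 being added. Leaving out 1 library gave between 7 and 9 members higher between the untreated lines (11 with all libraries) and between 1 and 3 more negative in the interaction (2 with all). Where the pairing of numbers was not seen in every pair, the block gave 11 more positive members in the interaction, adding LAMB3 (adjusted p = 0.0246) and ITGB5 (0.0217), called COL1A1 between the untreated lines (0.0309), and with Dox/IAA in SDS22-degron cells called LAMC3 (0.0460) and lost COL4A6 (0.0530). It changed no other call of a member beside those given in the report. In the 4 pairs of groups without such pairing, 14 of 24 libraries correlated best with the library of their own number, a hint from the data alone.

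Reversed signs were seen in uncalled values alone. The Dox/IAA change of COL12A1 in parental cells was 0.02 with the GC correction, with or without the block, and 0.05 with library size only, and that of LAMA5 was -0.01 with the GC correction, with or without the block. Between the untreated lines COL17A1 was 0.02 with library size only and COL6A2 -0.01 with no filter. Leaving out 1 library gave these ranges: in parental cells with Dox/IAA, COL12A1 -0.04 to 0.02, COL27A1 -0.05 to 0.21, COL4A3 -0.03 to 0.35, LAMA5 -0.03 to 0.16 and LAMB3 -0.14 to 0.17. Between the untreated lines they were -0.16 to 0.16 for COL17A1, -0.1 to 0.07 for COL6A1 and -0.03 to 0.04 for COL6A2, and between the treated lines -0.08 to 0.3 for LAMA5. In the interaction they were -0.05 to 0.14 for COL4A4, -0.16 to 0.03 for ITGA3, -0.96 to 0.2 for ITGAX, -0.57 to 0.12 for ITGB8 and -0.05 to 0.33 for LAMA3. The cause was not tested. With 3 libraries a group, changes of members under about 20 counts a library are the least precise.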
